A study of Homo sapiens with 6 samples.

Results

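The genes described here are 59 protein-coding genes of the G2 phase and of mitosis, chosen by name for their role in the division cycle. The set holds mitotic cyclins and kinases, checkpoint and kinetochore proteins, kinesins, spindle, cytokinesis and condensin proteins, and regulators of the anaphase-promoting complex. All 59 symbols were found among the 46427 genes listed in the files. RNA came from K562 cells, an established human erythroleukemia line, wild type per the labels. 3 libraries were from cells given 0.1% DMSO as vehicle and 3 from cells given 10 µM of HR-19011, a code-named compound, with 24 h of exposure in every case. The labels do not give the DMSO percentage of the HR-19011 cultures, nor say whether the 3 libraries of a group came from separate cultures. The p-values therefore measure only the spread between these libraries, which may be technical.

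Cells enter mitosis when the kinase CDK1, bound to cyclin A or cyclin B, is switched on. The kinases WEE1 and PKMYT1 hold CDK1 off by phosphorylating it, and the CDC25 phosphatases remove those phosphates. Polo and Aurora kinases then build the spindle, the kinetochore ties chromosomes to it, and the spindle assembly checkpoint holds back the anaphase-promoting complex (APC/C) until every chromosome is attached. Transcripts of these proteins are known to peak late in the cycle, under the transcription factors B-MYB and FOXM1 and the MuvB complex. Many of their promoters carry a CCAAT box, read by NF-Y, and a cell cycle genes homology region (CHR), read by MuvB.

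Values are FPKM as deposited, which scale fragments by transcript length and by the mapped total of the library. No read depth can be read from them. The FPKM of all genes summed ran from 456639 to 467595 in vehicle libraries and from 420661 to 427819 in HR-19011 libraries. All 9 erythroid genes used to check the line averaged at least 1 FPKM. Their summed level ran from 9831 to 10022 FPKM in vehicle and from 4274 to 4498 FPKM in HR-19011. Of the T cell, B cell, monocyte, fibroblast and epithelial markers, CD2, MS4A1 and KRT5 were listed at 0 in all 6 libraries. CD3D, LYZ and EPCAM averaged above 1 FPKM, with summed lists of 6.21 to 9.14 FPKM against 11.7 to 12.4 for T cell, 11.4 to 12.1 against 12.3 to 13.3 for monocyte and 31.9 to 33.4 against 18.7 to 21.3 for epithelial markers. Summed B cell markers ran from 0.262 to 0.509 FPKM in vehicle and from 0.627 to 0.989 in HR-19011, and fibroblast markers from 0.413 to 0.516 and from 0.463 to 0.500. The part of these shifts in the results was not tested.

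Promoter sequences of the mitotic switch genes are shown first, because CCAAT boxes and CHRs are the textbook elements of these genes and the transcripts moved in different directions. RefSeq promoter windows on GRCh38.p14, from 250 bases before to 50 after the annotated start, were found for 49 of the 59 genes. The entries not matched were WEE1, PKMYT1, AURKA, BUB3, TTK, BIRC5, KNL1, TPX2, UBE2C and FOXM1. The lines below give the 150 bases before the start, 5′ to 3′ on the gene's own strand. Capitals mark CCAAT, the CHR letters TTTGAA or TTTAAA, and the E2F letters TTCGCGC or TTGGCGC, each on either strand. Matches may overlap, as the E2F matches of CDC25A do.
CCNB1, chr5:69167000-69167149, plus strand: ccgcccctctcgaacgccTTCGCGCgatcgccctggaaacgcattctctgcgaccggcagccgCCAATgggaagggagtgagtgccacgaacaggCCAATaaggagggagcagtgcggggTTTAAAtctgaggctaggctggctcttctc
CCNB2, chr15:59104996-59105145, plus strand: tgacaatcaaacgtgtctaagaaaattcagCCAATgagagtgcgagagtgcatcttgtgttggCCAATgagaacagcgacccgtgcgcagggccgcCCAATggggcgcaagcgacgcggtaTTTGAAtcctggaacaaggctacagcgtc
CDK1, chr10:60778181-60778330, plus strand: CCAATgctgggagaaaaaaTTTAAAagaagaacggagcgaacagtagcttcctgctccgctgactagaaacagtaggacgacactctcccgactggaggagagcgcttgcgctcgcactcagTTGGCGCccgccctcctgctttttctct
PLK1, chr16:23678739-23678888, plus strand: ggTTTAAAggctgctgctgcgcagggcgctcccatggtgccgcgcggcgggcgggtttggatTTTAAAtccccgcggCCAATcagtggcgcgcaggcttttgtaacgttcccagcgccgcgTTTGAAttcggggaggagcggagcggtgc
CDC25A, chr3:48188418-48188567, minus strand: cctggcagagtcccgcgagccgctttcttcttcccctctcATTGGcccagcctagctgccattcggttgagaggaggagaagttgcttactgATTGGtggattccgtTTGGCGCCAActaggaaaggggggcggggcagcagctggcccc
CDC25C, chr5:138338356-138338505, minus strand: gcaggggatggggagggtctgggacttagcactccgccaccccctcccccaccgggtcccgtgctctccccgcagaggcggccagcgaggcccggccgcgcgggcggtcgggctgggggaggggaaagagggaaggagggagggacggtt

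In CCNB1, an E2F match began 132 bases before the start, CCAAT matches 87 and 55 bases and a TTTAAA match 30 bases before it. CCNB2 held CCAAT matches 120, 87 and 54 bases before its start and a TTTGAA match at 29. PLK1 also had a TTTGAA match at 29, with a CCAAT match at 73 and TTTAAA matches at 148 and 88. CDK1 had a CCAAT match at 150, a TTTAAA match at 131 and an E2F match at 28. CDC25A had CCAAT matches on the other strand at 110 and 58 bases, and E2F matches at 43 and 40. The CDC25C stretch held none of these letters. A single annotated start was read per gene, so other starts, of CDC25C or of any gene, were not searched. A match is a description of the window and not a binding site.

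Over whole windows of 300 bases, a CCAAT match was present in 35 of the 49 promoters (71.4%), against 35.7% of 27305 promoters in the table and 37.8% of the 8992 that belong to tested genes. Either CHR match was present in 41 of 49 (83.7%), against 24.3% and 15.5%. TTTGAA stood in 35 of 49 and TTTAAA, a palindrome, in 14, and some promoters held both. An E2F match stood in 9 of 49 (18.4%), against 5.18% of all promoters and 9.15% of those of tested genes. By direction of the transcript, CCAAT was in 28 of 36 promoters of genes that fell, 2 of 6 of genes that rose and 5 of 7 of genes not called. A CHR match was in 30, 4 and 7 of these. No test was made of these shares, which rest on a single annotated start per gene.

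Most of the mitotic genes were lower in cells given HR-19011, by modest amounts. Of the 58 genes averaging 1 FPKM or more, 43 fell and 8 rose at a Benjamini-Hochberg adjusted p under 0.05 in limma, and 7 were not called. Fallen genes thus made up 74.1% of those tested, where 38.0% of all 11856 tested genes were called lower. Genes that rose made up 13.8%, against a background of 46.4%. Among the 8083 genes averaging 5 FPKM or more, which include all 58, 3703 were called lower and 3347 higher. Changes were called in either direction for 84.4% of all tested genes, so a call by itself sets no gene apart. The median log2 fold change was -0.37, against 0.07 for all tested genes, on the log2(FPKM + 1) scale, which understates changes of low genes. With only genes averaging 5 FPKM or more, the all-gene median was -0.04, and the set median minus it was -0.33. The summed level of the 59 genes was 2084, 2013 and 2060 FPKM in vehicle and 1568, 1586 and 1548 FPKM in HR-19011, a change of -23.6%. In bulk RNA, fewer cells in G2 and mitosis and less of these transcripts per cell cannot be told apart.

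As deposited, few changes were large. A called log2 fold change of -1 or lower was found for 1 of the 58 genes, CDC25A, against 6.45% of all tested genes. None had a called log2 fold change of 1 or more, against 12%. Under TMM, 6 genes passed -1, namely CDC25A, CCNB1, CCNA2, PKMYT1, MAD2L1 and MYBL2, against 11.1% of all tested genes. CDC25C passed 1 under TPM, against 16.6%, and with a pseudocount of 0.1, against 16%. In a test against a 1.5-fold change, 10 genes were called lower, namely CDC25A, CCNB1, CCNA2, PKMYT1, MYBL2, MAD2L1, BIRC5, BUB1B, SPC24 and MKI67. CDC25C was the 1 gene called higher in that test, in which 1515 of all 11856 tested genes were called lower and 2201 higher. Treated and vehicle values were fully separated for 51 of the 58 genes, against 85.2% of all tested genes, and in 43 of them the treated values were the lower ones, against 38.3%.

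The balance depended on how the libraries were scaled. TMM scaling (trimmed mean of M values) shifted the median change over the tested genes by -0.21 on the log2 scale, quantile normalization by -0.13 and conversion to TPM (scaled to equal totals per library) by 0.12. Genes called lower numbered 43 as deposited and with totals equalized without globin and mitochondrial genes, 36 under TPM, 41 under quantile normalization and 51 under TMM. Genes called higher numbered 8, 8, 10, 8 and 2 in the same order. Of all 11856 tested genes, 4503, 4613, 3811, 5366 and 5960 were called lower in that order, so the counts moved with the background. All tested genes called higher numbered 5506, 5393, 6269, 4582 and 4128. The mitotic genes called lower under all 5 scalings numbered 36. AURKB, KIF11, KIF14, NUSAP1, SMC2, SMC4 and TOP2A lost that call under at least 1 of them. CDC25C and WEE1 were called higher under all 5 scalings. CDC25B, KIF18A, KIF2C, NCAPD2, NDC80 and TTK were not called higher under TMM. All 7 genes not called as deposited were called lower under TMM, as was NCAPD2. The median of the set minus that of all tested genes was -0.44 as deposited, -0.46 under TMM, -0.45 under TPM and -0.26 under quantile normalization. Of all genes called, 55% were higher as deposited, 40.9% under TMM, 62.2% under TPM and 46.1% under quantile normalization.

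**Figure D1:**
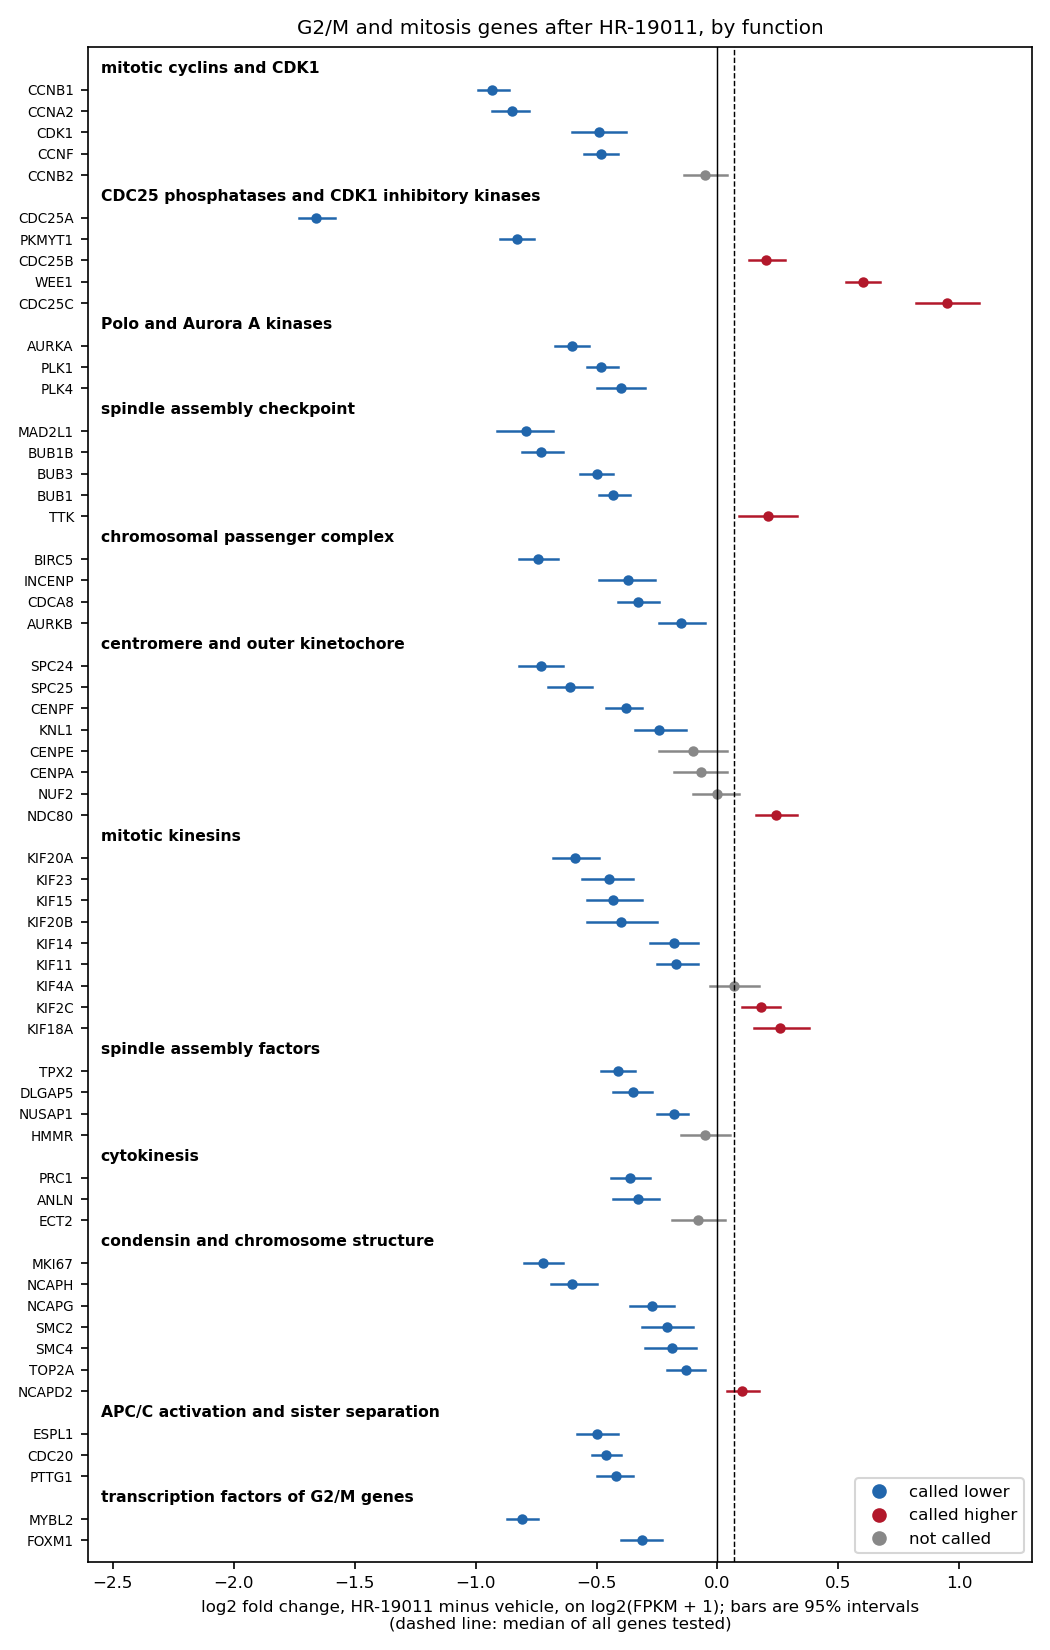
Log2 fold change of each of the 58 tested genes, HR-19011 minus vehicle, on log2(FPKM + 1), grouped by function; points are limma estimates from 3 against 3 libraries and bars 95% intervals. 43 points in blue were called lower, 8 in red higher and 7 in grey not called, and CDC25A at -1.66 and CDC25C at 0.95 are the ends of the range.

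Counts in each functional group stand beside 38.0% of all tested genes called lower and 46.4% called higher. Among genes averaging 5 FPKM or more, which include all 58 of the set, 3703 of 8083 were called lower and 3347 higher. Among the mitotic cyclins and CDK1, 4 of 5 fell and CCNB2 was not called. CCNB1, the main cyclin B of mitotic entry, was listed at 98.5, 95.3 and 98.0 FPKM in vehicle and 50.4, 51.6 and 50.2 FPKM in HR-19011. Every treated value was thus far under the lowest vehicle value, and the log2 fold change was -0.93 (SE 0.0269, adjusted p = 3.64e-09). CCNB2, its close relative, was listed at 54.1, 51.1 and 50.9 FPKM in vehicle and 50.9, 52.3 and 47.7 FPKM in HR-19011. These groups overlapped, and the log2 fold change of -0.05 had a 95% interval of -0.14 to 0.04. CCNB2 turned to -0.29 (adjusted p = 0.000147) under TMM and to 0.10 (adjusted p = 0.035) under quantile normalization.

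The ratio of CCNB1 to CCNB2 FPKM within a library, which a common scaling factor cannot change, was 1.82, 1.86 and 1.93 in vehicle and 0.991, 0.986 and 1.05 in HR-19011. Both cyclin B transcripts were thus about equally abundant per length in treated cells, while CCNB1 was the higher in vehicle. Of 18 such ratios computed between related genes, 15 did not overlap between the groups (83.3%). The values of single genes did not overlap for 85.2% of tested genes. No share was computed for ratios of other gene pairs. The ratios were chosen after their values were seen and are given as a description. An exact permutation test of 3 against 3 libraries cannot give a two-sided p below 0.1, so none is given. CDK1, the kinase itself, was listed at 78.1, 67.8 and 73.9 FPKM in vehicle and 52.5, 50.8 and 52.4 FPKM in HR-19011 (log2 fold change -0.49, adjusted p = 1.11e-05). CCNA2, which partners CDK2 and CDK1, fell 1.83-fold and CCNF, a substrate receptor of an SCF ubiquitin ligase, 1.42-fold. On GRCh38, CCNB1 lies on chromosome 5 from 69167150 to 69178245, CCNB2 on chromosome 15 from 59105146 to 59125045 and CDK1 on chromosome 10 from 60778331 to 60794852.

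The genes that set the phosphorylation of CDK1 had the widest range among the functional groups of the set, from -1.66 to 0.95. CDC25A, a phosphatase that acts at the G1/S and G2/M transitions, was listed at 31.0, 30.3 and 31.5 FPKM in vehicle and 9.18, 9.17 and 9.03 FPKM in HR-19011. It fell 3.39-fold (log2 fold change -1.66, SE 0.0325, adjusted p = 4.2e-10), and 1.05% of all tested genes had a lower log2 fold change. CDC25C, the phosphatase of mitotic entry, was listed at 7.06, 6.92 and 6.37 FPKM in vehicle and 14.2, 14.9 and 13.1 FPKM in HR-19011. It rose 2.07-fold (log2 fold change 0.95, SE 0.0564, adjusted p = 3.35e-07), the highest of the set, although 87.0% of all tested genes had a lower value. CDC25B, the third phosphatase, was listed at 13.0, 13.3 and 13.1 FPKM in vehicle and 15.3, 15.2 and 15.4 FPKM in HR-19011. It rose by 0.20 (adjusted p = 0.000301), a direction that turned to -0.02 (adjusted p = 0.499) under TMM.

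In vehicle libraries CDC25A was the most abundant CDC25 transcript per length and CDC25C the least, and in HR-19011 libraries CDC25A was the least and CDC25B the most. The ratio of CDC25C to CDC25A FPKM went from 0.220 ± 0.0149 (SD, n = 3) to 1.54 ± 0.0895. Exons of CDC25C overlap FAM53C on the other strand in GENCODE 29, a gene averaging 23.2 FPKM. The kit was stranded, but whether the counting used strand is not stated in the sources used. On GRCh38, CDC25A lies on chromosome 3 from 48157146 to 48188417 and CDC25C on chromosome 5 from 138285265 to 138338355.

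The kinases that restrain CDK1 also moved in opposite directions. WEE1 was listed at 19.7, 18.9 and 19.4 FPKM in vehicle and 29.9, 29.4 and 30 FPKM in HR-19011, and rose 1.54-fold (log2 fold change 0.60, adjusted p = 1.29e-07). PKMYT1, the membrane-bound relative, was listed at 67.2, 70.5 and 69.7 FPKM in vehicle and 39.2, 38.8 and 37.4 FPKM in HR-19011, and fell 1.80-fold (log2 fold change -0.83, adjusted p = 1.87e-08). The groups did not overlap for either gene, and the ratio of WEE1 to PKMYT1 went from 0.279 ± 0.0122 (SD, n = 3) to 0.774 ± 0.0240. PKMYT1 stayed the higher of the pair per length in every library. Exons of PKMYT1 overlap PAQR4 (11.3 FPKM on average) and KREMEN2 (1.17 FPKM) on the other strand.

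**Figure D2:**
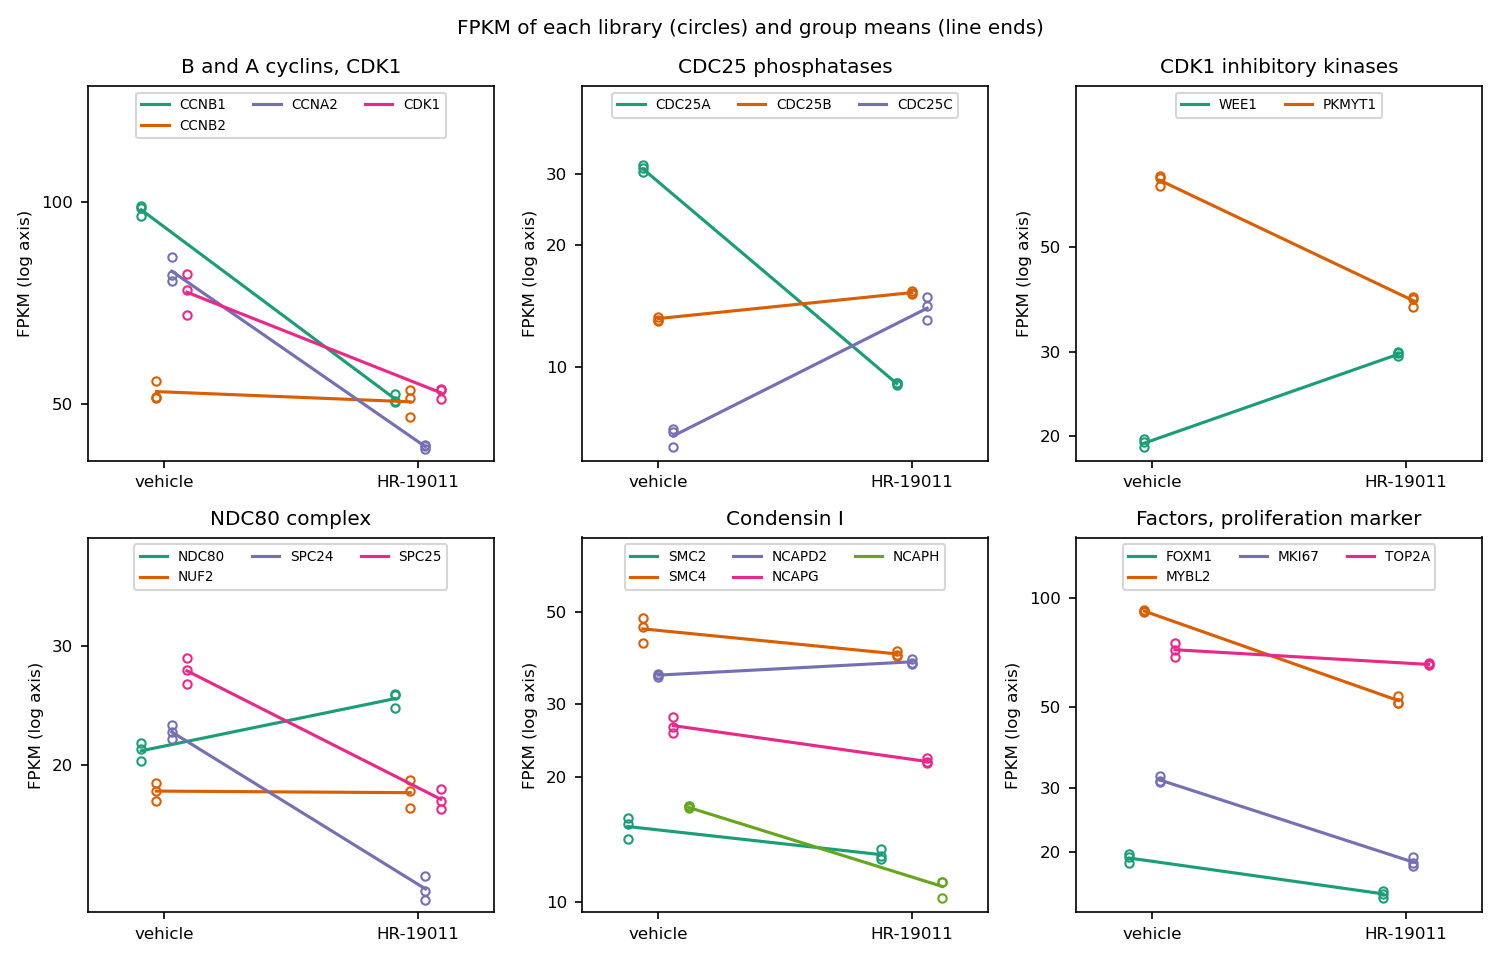
FPKM of each library (circles; 3 vehicle on the left and 3 HR-19011 on the right of each panel, log axis) for 22 genes in 6 functional panels, with lines joining the group means. CDC25A falls from a mean of 30.9 to 9.13 FPKM while CDC25C rises from 6.78 to 14, and SPC24 and SPC25 fall while NDC80 rises.

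All 3 Polo and Aurora A kinase genes fell. AURKA, which matures centrosomes and activates PLK1, was listed at 49.0, 46.1 and 47.1 FPKM in vehicle and 30.9, 31.1 and 30.9 FPKM in HR-19011 (log2 fold change -0.60, adjusted p = 1.51e-07). PLK1, which drives spindle assembly and mitotic entry, was listed at 90.1, 93.2 and 95.1 FPKM in vehicle and 66.1, 67.2 and 66 FPKM in HR-19011 (log2 fold change -0.48, adjusted p = 3.61e-07). PLK4, the trigger of centriole duplication, was listed at 15.5, 14.4 and 14.8 FPKM in vehicle and 10.6, 11.5 and 11 FPKM in HR-19011 (log2 fold change -0.40). No treated value of the 3 genes reached a vehicle value. AURKA has a processed copy, AURKAP1, listed at 1.5 and 2.05 FPKM in the groups, so reads may be shared between them.

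The spindle assembly checkpoint genes fell, with 1 exception. MAD2L1, which binds and holds CDC20, was listed at 18.2, 16.0 and 17.1 FPKM in vehicle and 9.40, 9.66 and 9.27 FPKM in HR-19011 (log2 fold change -0.79, adjusted p = 4.38e-07). BUB1B, encoding the checkpoint protein BUBR1, fell 1.69-fold, its partner BUB3 1.43-fold and the kinase BUB1 1.36-fold. TTK, encoding the kinase MPS1 that starts checkpoint signalling, was listed at 15.3, 13.5 and 13.9 FPKM in vehicle and 15.9, 16.7 and 17.2 FPKM in HR-19011. The groups did not overlap, although the highest vehicle value and the lowest treated value lay close together. TTK rose by 0.21 (adjusted p = 0.00448), which turned to -0.02 (adjusted p = 0.731) under TMM.

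All 4 genes of the chromosomal passenger complex, which corrects faulty chromosome attachments, fell as deposited. BIRC5, encoding survivin, was listed at 52.3, 50.2 and 51.6 FPKM in vehicle and 31.3, 30.5 and 29.3 FPKM in HR-19011 (log2 fold change -0.74, adjusted p = 5.51e-08). AURKB, the kinase of the complex, was listed at 35.7, 35.8 and 35.3 FPKM in vehicle and 30.1, 33.7 and 32.3 FPKM in HR-19011 (log2 fold change -0.15, adjusted p = 0.00836). The fall of AURKB was small, and its call was lost under TPM (adjusted p = 0.53) and quantile normalization (adjusted p = 0.547). CDCA8, encoding borealin, and the scaffold INCENP fell 1.26-fold and 1.32-fold. Relative to INCENP, BIRC5 went from 3.00 ± 0.239 (SD, n = 3) to 2.33 ± 0.0627 and AURKB from 2.08 ± 0.118 to 2.47 ± 0.139.

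Kinetochore genes did not all move one way. Of 8 centromere and outer kinetochore genes, 4 fell, 1 rose and 3 were not called, with a median of -0.17 (-0.06 under TPM and -0.39 under TMM). NDC80, SPC24, SPC25 and NUF2 encode the 4 subunits of the NDC80 complex, which grips microtubules. SPC24 was listed at 22.9, 22.4 and 21.9 FPKM in vehicle and 13.7, 13.0 and 12.6 FPKM in HR-19011 (log2 fold change -0.73, adjusted p = 1.94e-07), and SPC25 fell 1.56-fold. NDC80 was listed at 21.1, 20.3 and 21.6 FPKM in vehicle and 25.5, 25.4 and 24.3 FPKM in HR-19011. It rose by 0.24 (adjusted p = 0.000195), a call lost under TMM, where the value was 0.01. NUF2, the dimer partner of NDC80, was listed at 18.8, 17.7 and 18.3 FPKM in vehicle and 19.0, 18.3 and 17.3 FPKM in HR-19011, with a 95% interval of -0.10 to 0.09. NUF2 was called higher under TPM (0.12, adjusted p = 0.0253) and lower under TMM (-0.24, adjusted p = 0.000504).

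Within each library, SPC24 stood at 1.09, 1.10 and 1.01 times NDC80 in vehicle and at 0.539, 0.514 and 0.520 times in HR-19011. SPC25 stood at 1.32 ± 0.0446 times NDC80 (SD, n = 3) with vehicle and 0.709 ± 0.0284 times with HR-19011, and NUF2 at 0.870 ± 0.0230 and 0.727 ± 0.0160 times. SPC24 and SPC25, which form the other dimer of the complex, stood at a ratio of 0.811 ± 0.0327 and 0.740 ± 0.0249, also without overlap between the groups. CENPA, the centromeric histone H3 variant, was listed at 17.2, 15.8 and 17.0 FPKM in vehicle and 16.2, 16.2 and 14.9 FPKM in HR-19011. The groups overlapped, with an interval of -0.18 to 0.04. CENPE, a kinetochore kinesin, was listed at 9.05, 7.53 and 8.10 FPKM in vehicle and 7.87, 7.48 and 7.37 FPKM in HR-19011, with an interval of -0.24 to 0.04. CENPE was called lower once vehicle replicate 2 was left out (log2 fold change -0.16, adjusted p = 0.0324), and under quantile normalization (-0.25, adjusted p = 0.00418).

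Mitotic kinesins, the motors of the spindle, showed 6 falls, 2 rises and 1 gene not called among 9, with a summed level of 171 ± 4.40 FPKM (SD, n = 3) with vehicle against 163 ± 3.57 with HR-19011. KIF20A, which acts in cytokinesis, was listed at 17.6, 17.9 and 19.3 FPKM in vehicle and 11.7, 11.9 and 11.8 FPKM in HR-19011 (log2 fold change -0.59, adjusted p = 1.02e-06). Exons of KIF20A overlap CDC23 (23.4 FPKM) on the other strand. KIF18A, which dampens chromosome oscillation, was listed at 7.22, 6.59 and 6.93 FPKM in vehicle and 8.25, 9.05 and 8.23 FPKM in HR-19011. It rose by 0.26 (adjusted p = 0.00103), a call lost under TMM (adjusted p = 0.364) and quantile normalization (adjusted p = 0.0523).

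KIF2C, a microtubule depolymerase at centromeres, was the most abundant kinesin of the set per length. It was listed at 69.0, 66.1 and 63.5 FPKM in vehicle and 75.4, 75.8 and 74.4 FPKM in HR-19011. It rose by 0.18 (adjusted p = 0.000826), which turned to -0.06 (adjusted p = 0.148) under TMM. KIF4A, a chromosome-bound kinesin, was listed at 16.6, 16.7 and 17.3 FPKM in vehicle and 18.2, 18.4 and 16.7 FPKM in HR-19011, with an interval of -0.03 to 0.17. The groups overlapped through HR-19011 replicate 3, without which KIF4A was called higher (0.11, adjusted p = 0.0285). KIF4A was called lower under TMM (-0.16, adjusted p = 0.00631) and higher under TPM (0.20, adjusted p = 0.00173). KIF23, KIF15, KIF20B, KIF14 and KIF11 fell 1.40-fold, 1.40-fold, 1.37-fold, 1.14-fold and 1.13-fold; the calls of KIF11, the motor that separates spindle poles, and of KIF14 were lost under TPM.

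Of the spindle assembly factors, 3 of 4 fell. TPX2, which activates AURKA on the spindle, was listed at 85.4, 81.7 and 85.1 FPKM in vehicle and 61.1, 64.8 and 63.0 FPKM in HR-19011 (log2 fold change -0.41, adjusted p = 2.13e-06). DLGAP5 fell 1.29-fold and NUSAP1 1.14-fold, the latter a call lost under TPM and quantile normalization. HMMR was listed at 30.1, 27.3 and 30 FPKM in vehicle and 28.7, 28.0 and 27.6 FPKM in HR-19011. Its groups overlapped, with an interval of -0.15 to 0.05, and it was called lower without vehicle replicate 2 (-0.09, adjusted p = 0.0308). Among the cytokinesis genes, PRC1, which bundles midzone microtubules, was listed at 49.9, 50.3 and 50.6 FPKM in vehicle and 39.0, 40.7 and 37.1 FPKM in HR-19011 (log2 fold change -0.36, adjusted p = 1.37e-05). ANLN, encoding anillin, fell 1.29-fold. ECT2, which activates RhoA at the cleavage furrow, was listed at 11.5, 10.3 and 10.7 FPKM in vehicle and 10.4, 9.79 and 10.5 FPKM in HR-19011, with overlap and an interval of -0.19 to 0.03. HMMR and ECT2 were called lower under TMM, at -0.28 and -0.30, and ECT2 also under quantile normalization (-0.19, adjusted p = 0.00642).

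Of 7 condensin and chromosome structure genes, 6 fell and NCAPD2 rose, with a median of -0.21 (-0.09 under TPM and -0.43 under TMM). MKI67, which encodes the proliferation marker Ki-67, was listed at 31.1, 31.2 and 32.3 FPKM in vehicle and 18.3, 19.3 and 18.6 FPKM in HR-19011 (log2 fold change -0.72, adjusted p = 6.79e-08). TOP2A, the topoisomerase that untangles sister chromatids, was listed at 75.2, 68.8 and 71.8 FPKM in vehicle and 65.1, 66 and 65.5 FPKM in HR-19011. It fell by 0.13 (adjusted p = 0.00648), a call lost under TPM (adjusted p = 0.794) and turned to 0.03 (adjusted p = 0.429) under quantile normalization. MKI67 and TOP2A are both common markers of dividing cells.

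Condensin I compacts chromosomes with the ring proteins SMC2 and SMC4 and 3 further subunits. NCAPH, which closes the ring, fell 1.56-fold, and NCAPG fell 1.22-fold. SMC2 and SMC4 fell 1.17-fold and 1.15-fold, calls that were lost under TPM (adjusted p = 0.0677 and 0.158). NCAPD2 was listed at 35.5, 34.9 and 35.3 FPKM in vehicle and 37.4, 38.6 and 37.6 FPKM in HR-19011. It rose by 0.10 (adjusted p = 0.00804) as deposited and was called lower (-0.14, adjusted p = 0.00127) under TMM. Exons of NCAPD2 overlap MRPL51 (47.3 FPKM) on the other strand. Relative to SMC2, NCAPH went from 1.12 ± 0.0590 (SD, n = 3) to 0.836 ± 0.0442 and NCAPD2 from 2.33 ± 0.115 to 2.92 ± 0.0362, without overlap. The ratio of SMC4 to SMC2 overlapped between groups, at 3.00 ± 0.0390 and 3.05 ± 0.0937.

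The genes of APC/C activation and sister separation that could be tested all fell. CDC20, the activator of APC/C, was the most abundant transcript of the set per length, at 107, 110 and 108 FPKM in vehicle and 79.0, 79.0 and 77.4 FPKM in HR-19011 (log2 fold change -0.46, adjusted p = 1.92e-07). PTTG1, encoding securin, was listed at 91.2, 89.9 and 92.0 FPKM in vehicle and 70.5, 65.2 and 67.2 FPKM in HR-19011 (log2 fold change -0.42, adjusted p = 2.03e-06). ESPL1, encoding separase, the protease that securin holds back, was listed at 14.1, 14.8 and 15.2 FPKM in vehicle and 10.1, 10.1 and 10.2 FPKM in HR-19011 (log2 fold change -0.50, adjusted p = 1.86e-06). The ratio of PTTG1 to ESPL1 overlapped between groups, at 6.20 ± 0.222 and 6.69 ± 0.276 (SD, n = 3). UBE2C, the ubiquitin-conjugating enzyme of APC/C, was below the filter and was not tested. It was listed at 0.391, 0.740 and 0.515 FPKM in vehicle and 1.13, 0.842 and 0.780 FPKM in HR-19011, far under the 6.78 FPKM of the lowest tested gene in vehicle, CDC25C. A related pseudogene, UBE2CP5, was listed at 1.87 FPKM in vehicle and 2.33 FPKM in HR-19011. Whether reads of UBE2C were assigned elsewhere was not tested, and its level is uncertain.

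Both transcription factors of the set fell. MYBL2, encoding B-MYB, was listed at 91.4, 92.2 and 91.7 FPKM in vehicle and 51.4, 53.5 and 51.3 FPKM in HR-19011 (log2 fold change -0.81, SE 0.0274, adjusted p = 9.05e-09). FOXM1 was listed at 18.6, 19.7 and 19.3 FPKM in vehicle and 14.9, 15.3 and 15.6 FPKM in HR-19011 (log2 fold change -0.31, SE 0.0357, adjusted p = 3.09e-05). The groups did not overlap for either gene, and both fell under every scaling tried. On GRCh38, MYBL2 lies on chromosome 20 from 43667114 to 43716482 and FOXM1 on chromosome 12 from 2857680 to 2877174.

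Other genes of the cycle were read from the same fit, in which 38.0% of all tested genes were called lower and 46.4% higher. Of 17 APC/C subunits and regulators, 13 fell and 3 rose (median -0.33), with FBXO5, the APC/C inhibitor EMI1, down 2.17-fold and the subunit ANAPC16 up 2.39-fold. Of 13 cohesin genes, 8 fell and 4 rose (median -0.13), with CDCA5, encoding sororin, down 1.44-fold and the loader subunit MAU2 up 1.55-fold. Of 30 inner kinetochore and centromere loading genes, 18 fell and 8 rose (median -0.21). Their ends were CENPX, shared with the Fanconi pathway, which went from 118 ± 1.51 (SD, n = 3) to 24.8 ± 1.15 FPKM, and DSN1, up 1.46-fold. Of 13 centrosome genes, 4 fell and 5 rose, with a median of 0.02 that turned to -0.19 under TMM; SASS6 fell 1.92-fold and CENPJ rose 1.89-fold.

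Of 33 other spindle and mitotic genes, 18 fell and 9 rose, with a median of -0.12 that turned to 0.01 under TPM. FAM83D fell 3.43-fold, and GAS2L3 rose from 0.597 ± 0.0673 to 4.35 ± 0.496 FPKM (SD, n = 3). Of 8 Greatwall and PP2A-B55 genes, which keep CDK1 substrates phosphorylated or remove those phosphates, 5 fell and 2 rose (median -0.22), with PPP2R1A down 1.40-fold and ENSA up 1.23-fold, from a log2 fold change of 0.30 as deposited to 0.06 (adjusted p = 0.036) under TMM. Of 11 G2 checkpoint genes, 7 fell and 3 rose (median -0.38), with CLSPN, encoding claspin, down 2.01-fold and TP53BP1 up 1.96-fold. Medians moved with scaling, from -0.21 under TPM to -0.56 under TMM for APC/C genes, -0.02 to -0.36 for cohesin, -0.10 to -0.44 for the inner kinetochore, -0.11 to -0.45 for Greatwall and PP2A-B55 and -0.27 to -0.61 for the G2 checkpoint. Shares of falls in these lists ranged from 30.8% to 76.5%, beside the 38.0% of all tested genes. Shares of rises ranged from 17.6% to 38.5%, all under the 46.4% of all tested genes.

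The factors that read these promoters were mixed. Of 21 tested MuvB, pocket protein, E2F and NF-Y genes, 12 fell (57.1%) and 6 rose (28.6%), against 38.0% and 46.4% of all tested genes, with a median of -0.15. That median was -0.05 under TPM and -0.38 under both quantile normalization and TMM. TFDP1, the dimer partner of E2F proteins, fell 2.29-fold, and the MuvB subunit LIN37 rose 2.19-fold. MYBL1 was below the filter.

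S-phase genes, listed for comparison, had a lower median than the mitotic genes. Of 24 genes, 22 fell and none rose, against the background of 38.0% lower and 46.4% higher, with a median of -0.91 beside -0.37 for the mitotic set. The difference between these sets was not tested. UNG was the lowest and fell 3.82-fold, and MCM5 fell least among those called, 1.12-fold. The call of MCM5 was lost under TPM (log2 fold change -0.04, adjusted p = 0.326) and quantile normalization (-0.01, adjusted p = 0.829). Among 10 tested CDK inhibitor, D cyclin and GADD45 genes, 6 rose and 3 fell (median 0.48, or 0.15 under quantile normalization and 0.29 under TMM), led by CDKN1A, encoding p21, at 2.12 ± 0.0467 and 26.9 ± 1.46 FPKM (SD, n = 3). CDKN2C fell 1.37-fold.

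**Figure D3:**
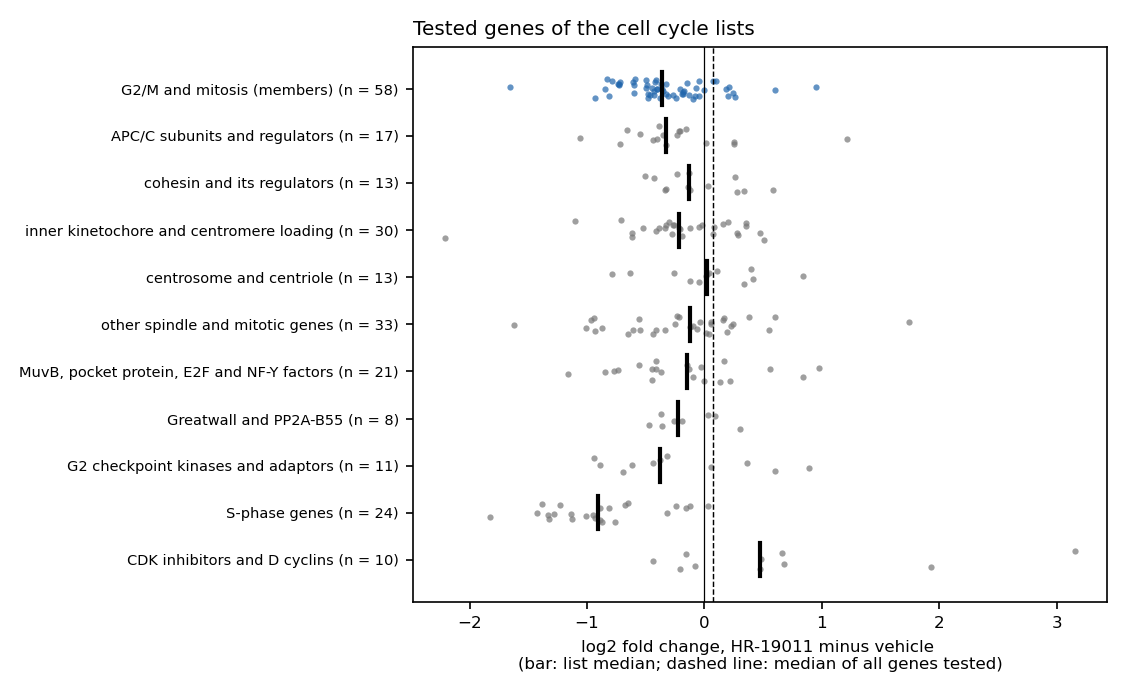
Log2 fold change of each tested gene of the mitotic set (top row, blue) and of 10 other cell cycle lists (grey), HR-19011 minus vehicle, with the list median as a black bar and the median of all tested genes as a dashed line; the vertical jitter carries no meaning. The mitotic set is centred on -0.37, S-phase genes on -0.91 and CDK inhibitors and D cyclins on 0.48, all as deposited; under quantile normalization the last of these was 0.15.

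**Figure D4:**
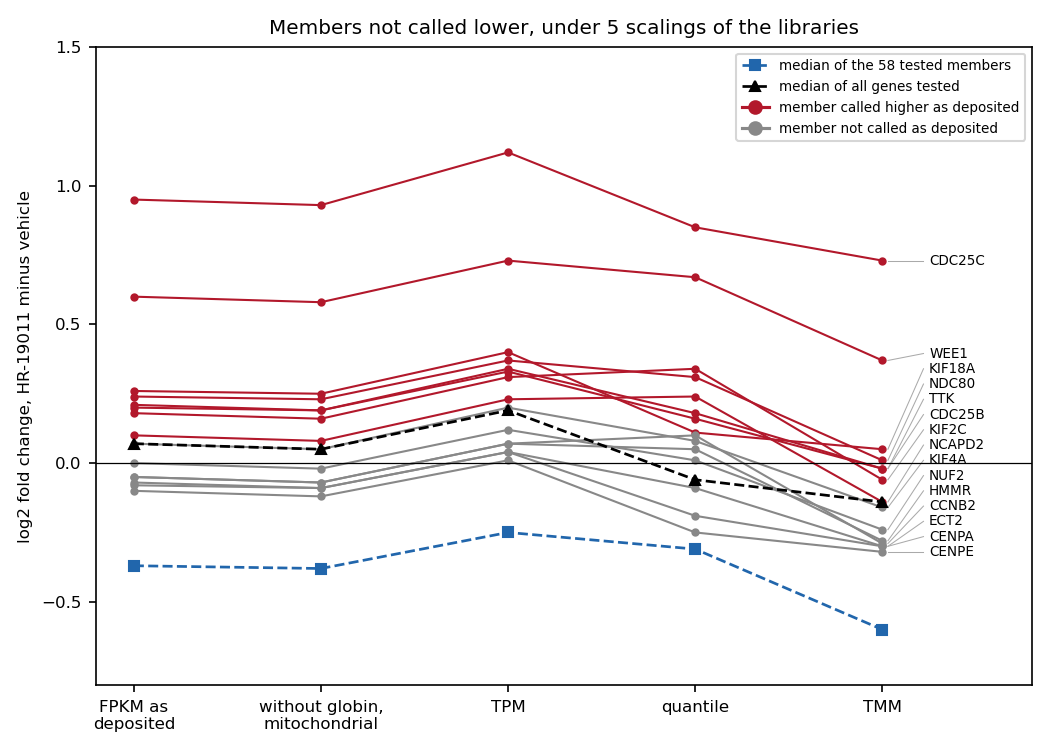
Log2 fold change of the 15 tested genes that were not called lower as deposited (red, called higher; grey, not called) under 5 scalings of the libraries, with the medians of the 58 tested genes (blue squares) and of all tested genes (black triangles). CDC25C and WEE1 stay above 0 under every scaling, and under TMM the other genes called higher as deposited lie between -0.14 and 0.05.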

How the data were processed

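Polyadenylated RNA of 3 vehicle and 3 HR-19011 libraries was sequenced from a stranded kit, per the labels' protocols. FPKM per gene were deposited by the authors. Per the submitters' processing notes, which give no roles, the tools were DESeq2 1.24.0, StringTie 2.1.3b, SAMtools 1.9, Trimmomatic 0.38, Bowtie2, HISAT and HISAT2 2.1.0, with build GRCh38. Whole reads could not be recovered from the low values, so depth is unknown and no count test was run.

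The 11856 genes with an average of 1 FPKM or more across 6 libraries were tested as log2(FPKM + 1) in limma 3.58.1 (R 4.3.3) with a variance trend, two-sided, HR-19011 against vehicle, with Benjamini-Hochberg adjustment over all tested genes and a threshold of 0.05. On simulated data over 11856 genes, only 50 genes each were changed 1.25-fold, 1.5-fold, 2-fold and 4-fold. Of these, 70%, 98%, 100% and 100% were recovered, with 9 false calls in all. In the data, 84.4% of all tested genes were called, a far larger share than was changed there. Whether the recovery and the false calls carry over to the data was not tested.

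The mitotic genes and the lists were chosen with earlier results of these data known. Values by library are given for the lowest and highest gene of each functional group, for 10 set genes (CDK1, CCNB1, CDC25C, PLK1, AURKA, BIRC5, TOP2A, MKI67, FOXM1, MYBL2), for genes that rose and for those not called or not tested. CDC20 and the ratios between related genes were added after their values were seen. Of each further list, the called genes with the lowest and highest change are named. Alternatives covered pseudocount, filter, scaling, variance trend, replicate block, threshold and left-out libraries. Exon overlaps were read from GENCODE 29 and gene positions and promoters from RefSeq, GRCh38.p14.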

Additional observations from a re-analysis of the deposited data

How the results depend on the processing

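Depth is unknown, so counting error cannot be given, and 3 libraries a group limit the precision. No member changed its call at a threshold of 0.01, with a pseudocount of 0.1 or 5, without a variance trend, or with totals equalized without globin and mitochondrial genes. Scaling moved more. TMM, with log-ratio trims of 30% and level trims of 5%, turned CDC25B to -0.02, TTK to -0.02, KIF2C to -0.06, KIF4A to -0.16 and NCAPD2 to -0.14. Quantile normalization turned CCNB2 to 0.10 and TOP2A to 0.03, and TPM turned NUF2 to 0.12. Mitotic genes called higher numbered 2 under TMM, where 4128 of all 11856 tested genes were called higher. The median of the mitotic genes was -0.30 with a pseudocount of 5, -0.60 under TMM, -0.25 under TPM and -0.31 under quantile normalization. Their summed level changed by -16.8% in TPM and -35.5% under TMM. The cause of these shifts was not tested.

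In the test against 1.5-fold, 10 mitotic genes were lower and 1 higher, and of all genes 1515 were lower and 2201 higher. Genes called higher numbered 8828 with no filter and 3347 among genes averaging 5 FPKM or more, where more and fewer genes were tested. Of all genes called, 64.4% were higher with no filter and 47.5% among those averaging 5 FPKM or more, against 55%.

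Leaving out each library in turn gave 43 to 45 mitotic genes lower, 8 to 9 higher and a median of -0.39 to -0.35, with 5318 to 5419 of all genes higher and 4345 to 4452 lower.

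Same-numbered libraries deviated from their group means with correlations of -0.034, -0.004 and -0.108, which give no sign of pairing by number. With 3 libraries a group and a small spread between them, such values cannot exclude pairing. A replicate block gave 43 mitotic genes lower and 8 higher, a median of -0.37 and 5435 and 4445 of all genes higher and lower, and no mitotic gene changed its call.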

Other observations

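Among the 58 tested mitotic genes, those with higher vehicle levels had lower log2 fold changes. The 29 with the higher vehicle FPKM had a median of -0.46 and the other 29 a median of -0.24. Across these genes Pearson's r was -0.40 and Spearman's rho -0.41, and r was -0.38 with the log2 ratio of mean FPKM. The vehicle libraries enter both measures and genes are not independent replicates, so no p is given. The median over all tested genes also went lower, from 0.07 to -0.04, once only genes averaging 5 FPKM or more were kept.

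Spread between libraries of a group was small. The median coefficient of variation of FPKM was 3.01% in vehicle and 2.48% in HR-19011, with CENPE the most variable in vehicle at 9.33% and CDC25C in HR-19011 at 6.62%.

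The set took 0.444% ± 0.00622 (SD, n = 3) of the summed FPKM of a vehicle library and 0.370% ± 0.00145 of that of an HR-19011 library. CCNA2 also shares exonic sequence with a gene on the other strand, EXOSC9 (31.4 FPKM on average), as do KIF18A with METTL15 (3.62 FPKM), SMC4 with TRIM59 (7.35 FPKM) and IFT80 (3.54 FPKM), and NCAPG with LCORL (2.61 FPKM). CDC20P1, a copy of CDC20, was listed at 1.69 FPKM in vehicle and 1.26 FPKM in HR-19011.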
